A study of Mus musculus with 12 samples.

Results

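Liver RNA of the 6 mice labelled Nts+/+, of 12 mice in the whole series, was compared between 3 mice fasted for 22 h (mice 265, 282 and 322) and 3 mice fed ad libitum (mice 254, 257 and 323). The comparison was chosen by genotype and feeding label alone and covered every gene, and 13812 of the 48795 genes in the deposited table had enough counts to be tested. All mice were 4-month-old females on normal chow, littermates matched for age and bred from heterozygous parents, and carried a single batch label. The other 6 mice, labelled Nts-/- (a whole-body deletion of neurotensin, a gut and brain peptide that promotes fat absorption), were fed or fasted in the same way and entered the same statistical model. Counts per library were between 21999647 and 36018372 in the 6 mice. Counts of the targeted gene did not follow the genotype labels. Nts had 0 counts in all 6 libraries labelled Nts+/+. It had 46, 40 and 15 counts in the fed and 12, 4 and 18 counts in the fasted libraries labelled Nts-/-. Genotypes are therefore given here only as labels. The feeding comparison within 1 label does not depend on which genotype the label stands for, provided that the 6 mice share it. The tissue label held: 10 of 10 hepatocyte markers were tested and their summed level was between 122100 and 143500 CPM in fed and between 127500 and 153600 CPM in fasted mice, while 4 Y chromosome genes had 0 counts.

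The liver supplies glucose and fuel to other organs when no food arrives. As insulin falls and glucagon and glucocorticoids rise, hepatocytes first break down glycogen and then make glucose from lactate, glycerol and amino acids, while fatty acids from adipose tissue activate the nuclear receptor PPARα, which drives mitochondrial and peroxisomal oxidation and ketone body synthesis. In the fed state insulin acts through SREBP-1c and glucose through ChREBP to drive fat synthesis, and SREBP-2 drives cholesterol synthesis and uptake when sterols are low. RNA levels of enzymes and regulators of these pathways are measured here, and fluxes are not.

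Fasting changed 2501 of 13812 genes (18.1%) at an adjusted p under 0.05 in edgeR's quasi-likelihood test with Benjamini-Hochberg adjustment, which is the threshold behind "rose" and "fell" throughout. Of these, 1231 genes (8.91%) rose and 1270 (9.19%) fell, and the median log2 change of all tested genes was -0.0032. Among called genes, 555 fell and 356 rose by 2-fold or more, and the median log2 change was 0.71 for genes that rose and -0.91 for genes that fell. At 8-fold or more the counts were 37 in each direction, and at 16-fold or more 19 rose and 13 fell. Of the called genes, the 3 fasted and 3 fed mice did not overlap in 1204 of those that rose and 1244 of those that fell, against 4976 of all 13812 tested genes (36.0%). The count of changed genes was 1326 without mouse 254, 1596 without mouse 257 and 1224 without mouse 282, and between 1962 and 2418 without each of the other three. The share of changed genes was 8.68% of the genes under 1 CPM and 31.5% of those over 1000 CPM, which were measured with the most reads. At 1 to 10 CPM 481 genes fell and 232 rose, and at 10 to 100 CPM 513 fell and 699 rose. The median absolute log2 change of called genes was 1.03 and 0.63 in these 2 classes. The part of level in the larger falls was not tested.

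**Figure D1:**
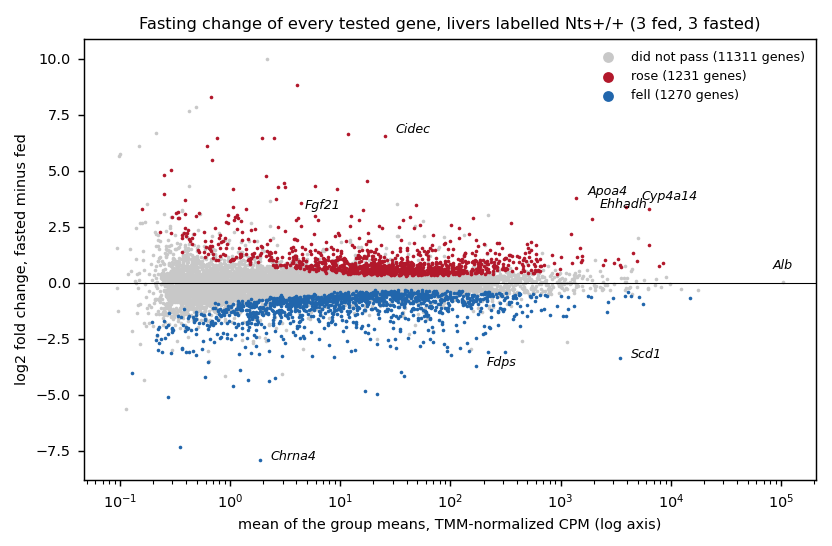
Each point is 1 of the 13812 tested genes, with the mean of the fed and fasted group means in TMM-normalized CPM on the x axis (log scale) and the log2 fold change of fasted over fed on the y axis. Genes that rose are red (1231), genes that fell are blue (1270) and genes that did not pass are grey. Labels mark some of the genes described in the text and albumin, the gene with the highest level.

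Values below are CPM (counts scaled to the size of the library after TMM normalization), listed for fed mice 254, 257 and 323 and then for fasted mice 265, 282 and 322, and each log2 change is fasted minus fed with its standard error (SE, n = 3 mice in each group) from edgeR. Where a change is given from 1 level to another, the levels are the fed and fasted group means ± SD of the 3 mice. CPM compares a gene between mice and not 1 gene with another, since it is not divided by gene length. Mouse 323 stood apart from the other fed mice: on the first principal component, which held 51.6% of the variance, fed mice 254 and 257 were at -45.3 and -44.3, mouse 323 was at -26.5 and the fasted mice were between 30.3 and 48.4. In many genes below mouse 323 was the fed mouse nearest to the fasted mice, and the number of changed genes without it was 2418. Because the livers were sequenced whole, fewer cells of a type and less RNA per cell cannot be told apart. Gene lists were chosen with earlier results of these data known. Their counts beside the share of all genes are descriptions without a test.

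The 12 largest rises among genes at 1 CPM or more included 3 lipid genes, Cidec, Plin4 and Apoa4. Cidec, which joins small lipid droplets into large ones (ENSMUSG00000030278, chromosome 6 from 113424634 to 113435760), had 0.369, 0.147 and 1.2 CPM in fed mice and 41.2, 70.8 and 39.8 CPM in fasted mice. Cidec had a log2 change of 6.53 ± 0.50 SE (adjusted p = 5.35e-05). The droplet coat protein gene Plin4 had 2.22, 0.993 and 1.02 CPM in fed mice and 31.2, 36.9 and 31.8 CPM in fasted mice. Plin4 had a log2 change of 4.55 ± 0.54 SE (adjusted p = 0.000605). Fasted and fed mice were far apart in both genes, and Cidec did not exceed 1.2 CPM in any fed mouse. Of 9 adipocyte markers, 5 (Adipoq, Lep, Plin1, Cfd and Retn) had too few counts to be tested, 2 had 0 counts in every mouse and Cidec alone rose. The marker Car3 had 2627, 2314 and 1042 CPM in fed mice and 480, 399 and 75.4 CPM in fasted mice. Car3 did not pass (log2 change -2.65, adjusted p = 0.0502). The summed level of the 9 markers was 1060 to 2644 CPM in fed and 136 to 539 CPM in fasted mice. Apoa4, an apolipoprotein of triglyceride-rich particles (ENSMUSG00000032080, chromosome 9 from 46240696 to 46243459), had 119, 131 and 323 CPM in fed mice and 3214, 3250 and 1338 CPM in fasted mice. Apoa4 had a log2 change of 3.77 ± 0.52 SE (adjusted p = 0.00113). The cell adhesion genes Npnt and Cntnap1 rose from 0.566 ± 0.344 to 11.3 ± 1.61 CPM (log2 change 4.31, adjusted p = 7.12e-05) and from 0.969 ± 0.112 to 17.6 ± 9.47 CPM (log2 change 4.18, adjusted p = 0.000158), and the growth regulator gene Cgref1 rose from 0.273 ± 0.187 to 5.92 ± 2.05 CPM (log2 change 4.46, adjusted p = 6.65e-05). Of 10 intestinal markers, 2 were tested, of which Fabp2 rose, and 3 had 0 counts. The largest rise was that of E030018B13Rik, a transcript with no descriptive name, which had 1 count over the 3 fed mice and 607 over the 3 fasted mice, a ratio of 529 (95% counting interval 94.5 to 20911). Its fasted level was uneven, with 14.8, 7.44 and 1.90 CPM. The unnamed transcript Gm15441 rose in every fasted mouse, to 5.50, 19.5 and 45.6 CPM from at most 0.355 CPM, so that its size is poorly fixed. Fabp2 was not called without any 1 of mice 254, 265 and 282 (adjusted p from 0.0515 to 0.0738).

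Among the largest falls, Selenbp2, a selenium-binding protein gene, had 31, 12.9 and 80.8 CPM in fed mice and 1.85, 1.06 and 1.14 CPM in fasted mice. Selenbp2 had a log2 change of -4.98 ± 0.76 SE (adjusted p = 0.00285). The fatty acid binding protein gene Fabp5 had 95.9, 22.4 and 84.3 CPM in fed mice and 3.18, 2.38 and 6.83 CPM in fasted mice. Fabp5 had a log2 change of -4.01 ± 0.67 SE (adjusted p = 0.00428). Fed levels of Selenbp2 and Fabp5 differed several-fold between mice, whereas the 3 fasted mice lay close together. The guanylate-binding protein gene Gbp10, which has near-identical neighbours so that its reads may be shared among them, fell from 32.4 ± 6.11 to 1.11 ± 0.292 CPM (log2 change -4.85, adjusted p = 0.00026). Prok1, a secreted prokineticin, fell from 4.86 ± 2.16 to 0.243 ± 0.0802 CPM (log2 change -4.27, adjusted p = 0.000237), and Hsd3b5, a hydroxysteroid dehydrogenase gene with close copies, fell from 2.05 ± 0.996 to 0.076 ± 0.0263 CPM (log2 change -4.62, adjusted p = 0.00148). Some genes were nearly absent in 1 group, where the fold rests on counting. Chrna4, a nicotinic receptor subunit, had 302 counts over the 3 fed mice and 1 over the 3 fasted mice, a ratio of 347 in fed over fasted (95% counting interval 61.8 to 13743). Its fed level was uneven, with 7.79, 3.09 and 0.310 CPM. Chrna4 was not called without mouse 282 (adjusted p = 0.0504).

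Several genes for making glucose rose, but those of 2 classic control points did not pass. Of 19 tested genes of gluconeogenesis and glycerol use, 9 rose, 0 fell and 10 did not pass, with a median log2 change of 0.54, beside 8.91% of all genes that rose. Slc37a4, which carries glucose 6-phosphate into the endoplasmic reticulum for its final hydrolysis, had 88.8, 77 and 113 CPM in fed mice and 227, 238 and 282 CPM in fasted mice. Slc37a4 had a log2 change of 1.42 ± 0.18 SE (adjusted p = 0.000261). Pcx, pyruvate carboxylase, which makes oxaloacetate from pyruvate, had 370, 380 and 417 CPM in fed mice and 989, 726 and 732 CPM in fasted mice. Pcx had a log2 change of 1.07 ± 0.17 SE (adjusted p = 0.000987). In both genes every fasted mouse was above every fed mouse. Pck1, whose product converts oxaloacetate to phosphoenolpyruvate, had 1628, 1611 and 896 CPM in fed mice and 2339, 3043 and 2878 CPM in fasted mice, groups that did not overlap but a change that did not pass (log2 change 1.0 ± 0.49 SE, adjusted p = 0.194). G6pc, the glucose 6-phosphatase gene, had 428, 353 and 268 CPM in fed mice and 762, 433 and 709 CPM in fasted mice and did not pass either (log2 change 0.86 ± 0.31 SE, adjusted p = 0.0766). Got1, an aminotransferase that supplies oxaloacetate, rose from 208 ± 9.09 to 493 ± 170 CPM (log2 change 1.25, adjusted p = 0.00512). Gpd1, which brings glycerol into the pathway, rose from 302 ± 22.2 to 609 ± 117 CPM (log2 change 1.01, adjusted p = 0.00249).

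Genes of glucose use fell more often than they rose. Of 17 tested genes of glycolysis and fructose entry, 1 rose (0 without each of mice 254, 323, 282 and 322), 5 fell (3 without mouse 282) and 11 did not pass, with a median log2 change of -0.28. Pklr, the liver pyruvate kinase, had 186, 194 and 133 CPM in fed mice and 48.4, 52.2 and 82.1 CPM in fasted mice. Pklr had a log2 change of -1.49 ± 0.35 SE (adjusted p = 0.014). Mlxipl, which encodes the glucose-responsive factor ChREBP, had 175, 135 and 80.9 CPM in fed mice and 42.1, 30.7 and 37.2 CPM in fasted mice. Mlxipl had a log2 change of -1.83 ± 0.25 SE (adjusted p = 0.000549). The fed and fasted mice were separate in both genes, and mouse 323 had the lowest fed level of each. Pklr was not called without mouse 265 or 282 (adjusted p = 0.0531 and 0.064).

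Of 16 tested glycogen genes, 2 rose, 1 fell and 13 did not pass, with a median log2 change of -0.07, so that 18.8% were called beside 18.1% of all genes. The synthase rose and the phosphorylase fell: Gys2, the liver glycogen synthase, rose from 88.3 ± 4.39 to 145 ± 13.1 CPM (log2 change 0.71, adjusted p = 0.00555), and Pygl, the liver glycogen phosphorylase, fell from 451 ± 30.2 to 231 ± 29.4 CPM (log2 change -0.97, adjusted p = 0.00304). Of 12 genes of the pyruvate dehydrogenase switch, 2 rose (1 without mouse 282 and 0 without each of mice 254, 257 and 265), 0 fell and 10 did not pass, with a median log2 change of 0.17. The called share was 16.7%, near the 18.1% of all genes. Pdk4, a kinase that turns the complex off, had 49.3, 33.1 and 35.3 CPM in fed mice and 97.8, 38.3 and 134 CPM in fasted mice, with fasted mouse 282 among the fed mice, and did not pass (log2 change 1.20 ± 0.43 SE, adjusted p = 0.0846). Of 18 genes of the TCA cycle, 7 rose, 0 fell and 11 did not pass, with a median log2 change of 0.21, among them the fumarase gene Fh1, which rose from 159 ± 12.2 to 305 ± 54.7 CPM (log2 change 0.93, adjusted p = 0.00148). Pdk4 passed without mouse 282 (adjusted p = 0.0114).

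Genes of fat synthesis fell together. Of 22 tested genes of de novo lipogenesis, 0 rose, 15 fell and 7 did not pass, with a median log2 change of -1.10, beside 9.19% of all genes that fell. Srebf1, which encodes the insulin-responsive factor SREBP-1 (ENSMUSG00000020538, chromosome 11 from 60199089 to 60222581), had 194, 319 and 129 CPM in fed mice and 37.9, 30.1 and 18.2 CPM in fasted mice. Srebf1 had a log2 change of -2.90 ± 0.37 SE (adjusted p = 0.000622). Acly, ATP citrate lyase, which supplies cytosolic acetyl-CoA, had 405, 413 and 164 CPM in fed mice and 75.8, 58.4 and 68.2 CPM in fasted mice. Acly had a log2 change of -2.28 ± 0.32 SE (adjusted p = 0.000906). Fasn, fatty acid synthase, had 340, 441 and 181 CPM in fed mice and 88.1, 110 and 54.3 CPM in fasted mice. Fasn had a log2 change of -1.93 ± 0.43 SE (adjusted p = 0.0126). In all 3 genes mouse 323 was the lowest fed mouse and still above every fasted mouse. Scd1, the main desaturase of the liver (ENSMUSG00000037071, chromosome 19 from 44394451 to 44407709), had 7509, 9115 and 2361 CPM in fed mice and 869, 724 and 229 CPM in fasted mice (log2 change -3.38 ± 0.72 SE, adjusted p = 0.0123), and again fed mouse 323 lay nearest to the fasted mice. Pnpla3, which encodes a lipid droplet hydrolase of the SREBP-1 programme, had 5.58, 7.1 and 0.355 CPM in fed mice and 0.19, 0.297 and 0.136 CPM in fasted mice (log2 change -4.38 ± 0.91 SE, adjusted p = 0.00873), and here fed mouse 323 was close to the fasted mice. Mid1ip1, an activator of acetyl-CoA carboxylase, fell from 46.7 ± 12.7 to 8.06 ± 2.53 CPM (log2 change -2.55, adjusted p = 0.00113), and G6pdx, which makes NADPH for the pathway, fell from 10.5 ± 4.67 to 4.03 ± 0.97 CPM (log2 change -1.38, adjusted p = 0.00909). Acss2, which activates acetate, fell from 290 ± 162 to 51.6 ± 8.84 CPM (log2 change -2.49, adjusted p = 0.012). The rate-setting carboxylase gene Acaca and the elongase gene Elovl6 fell, with log2 changes of -0.69 and -1.43. Thrsp, a lipogenic feeding-response gene, had 112, 104 and 61.4 CPM in fed mice and 54.6, 24.7 and 10.2 CPM in fasted mice and did not pass (log2 change -1.64 ± 0.70 SE, adjusted p = 0.144). Acaca was not called without any 1 of mice 254, 257, 265, 282 and 322 (adjusted p from 0.05007 to 0.134). Acss2 was not called without mouse 282 (adjusted p = 0.0549). Elovl6 was not called without any 1 of the 6 mice (adjusted p from 0.0729 to 0.111).

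The cholesterol pathway was the list with the largest median fall. Of 24 tested genes of cholesterol synthesis, 1 rose, 19 fell and 4 did not pass, with a median log2 change of -1.69. Fdps, farnesyl diphosphate synthase (ENSMUSG00000059743, chromosome 3 from 89093588 to 89101959), had 415, 272 and 259 CPM in fed mice and 24, 23.9 and 24.2 CPM in fasted mice. Fdps had a log2 change of -3.71 ± 0.29 SE (adjusted p = 1.5e-05). The 3 fasted mice agreed to within 1 CPM. Sqle, squalene epoxidase, had 96.4, 70.0 and 115 CPM in fed mice and 16, 13.7 and 9.46 CPM in fasted mice. Sqle had a log2 change of -2.85 ± 0.37 SE (adjusted p = 0.000749). No fasted mouse reached a fed mouse in either gene. Mvd, Idi1, Hmgcs1 and Cyp51, all enzymes of the pathway, fell, with log2 changes of -3.03, -3.05, -1.90 and -2.18. The exception was a regulator. The 2 proteins that hold SREBP in the endoplasmic reticulum moved in opposite directions: Insig1 had 333, 548 and 300 CPM in fed mice and 50.2, 39.6 and 48.6 CPM in fasted mice (log2 change -3.09 ± 0.37 SE, adjusted p = 0.000426), and Insig2 had 256, 167 and 440 CPM in fed mice and 1311, 753 and 695 CPM in fasted mice. Insig2 had a log2 change of 1.68 ± 0.36 SE (adjusted p = 0.00984).

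Of 16 tested genes of cholesterol uptake and export, 3 rose (1 without each of mice 254 and 282), 3 fell (5 without mouse 322) and 10 did not pass, with a median log2 change of -0.10. The sterol carrier gene Stard4 fell from 109 ± 18 to 27.2 ± 2.46 CPM (log2 change -2.0, adjusted p = 0.000149). The pair of proteins that release cholesterol from lysosomes moved in opposite directions, with Npc1 rising from 76.4 ± 11.7 to 159 ± 26.8 CPM (log2 change 1.06, adjusted p = 0.00122) and Npc2 falling from 97.6 ± 1.16 to 69.6 ± 7.08 CPM (log2 change -0.49, adjusted p = 0.0123). Npc2 was not called without mouse 282 (adjusted p = 0.0731).

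Fat-burning genes rose in mitochondria and peroxisomes. Of 21 tested genes of mitochondrial fatty acid oxidation, 14 rose, 0 fell and 7 did not pass, with a median log2 change of 0.90. Cpt1a, which gates fatty acid entry into mitochondria, had 216, 199 and 372 CPM in fed mice and 800, 840 and 631 CPM in fasted mice. Cpt1a had a log2 change of 1.53 ± 0.24 SE (adjusted p = 0.000965). Acadm, the medium-chain acyl-CoA dehydrogenase, had 370, 309 and 385 CPM in fed mice and 944, 867 and 739 CPM in fasted mice. Acadm had a log2 change of 1.26 ± 0.16 SE (adjusted p = 0.000258). All 3 fasted mice lay above all 3 fed mice in both, with mouse 323 the highest fed mouse for Cpt1a. Acot2, a mitochondrial thioesterase that frees fatty acids from CoA, rose from 9.85 ± 3.25 to 75.7 ± 22.1 CPM (log2 change 2.95, adjusted p = 0.000158). Slc22a5, the carnitine transporter of the plasma membrane, rose from 26.4 ± 15 to 113 ± 5.41 CPM (log2 change 2.11, adjusted p = 0.00102), and Hadha, a subunit of the trifunctional protein, rose from 327 ± 8.72 to 642 ± 19.2 CPM (log2 change 0.97, adjusted p = 0.000158).

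Of 26 tested genes of peroxisomal oxidation, 14 rose, 0 fell (1 without mouse 265) and 12 did not pass, with a median log2 change of 0.75. Ehhadh, the peroxisomal bifunctional enzyme (ENSMUSG00000022853, chromosome 16 from 21761287 to 21787844), had 441, 467 and 521 CPM in fed mice and 3135, 3554 and 3493 CPM in fasted mice. Ehhadh had a log2 change of 2.83 ± 0.25 SE (adjusted p = 2.45e-05). The groups were far apart, with the 3 fasted mice between 3135 and 3554 CPM. Pex11a, which makes peroxisomes divide, rose from 71.6 ± 23.3 to 270 ± 24.5 CPM (log2 change 1.91, adjusted p = 0.000134), and the carnitine acetyltransferase gene Crat rose from 77.7 ± 13.4 to 197 ± 11.3 CPM (log2 change 1.34, adjusted p = 0.000126). Of 14 genes of Cyp4 omega-oxidation, 5 rose, 2 fell and 7 did not pass, with a median log2 change of 0.49. The P450 gene Cyp4a14, a classic PPARα target (ENSMUSG00000028715, chromosome 4 from 115486200 to 115496142), had 917, 782 and 1827 CPM in fed mice and 11175, 11413 and 11672 CPM in fasted mice (log2 change 3.28 ± 0.27 SE, adjusted p = 1.5e-05), and the 3 fasted mice were nearly equal. Cyp4a10 rose from 682 ± 455 to 7109 ± 1628 CPM (log2 change 3.38, adjusted p = 0.000655). Counts of Cyp4a genes may be shared among close copies of the family. Cyp4f14, which acts on leukotrienes and other fatty acids, fell from 356 ± 15.3 to 91.3 ± 23.8 CPM (log2 change -1.96, adjusted p = 4.34e-05).

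Of 11 tested genes of ketone body synthesis and export, 4 rose, 0 fell and 7 did not pass, with a median log2 change of 0.30. The monocarboxylate transporter gene Slc16a7 rose from 77.6 ± 3.74 to 194 ± 25.3 CPM (log2 change 1.32, adjusted p = 0.000436). Bdh1, which makes β-hydroxybutyrate, had a log2 change of 0.30 (adjusted p = 0.247). Of 21 tested hepatokine genes, which encode hormones made by the liver, 3 rose, 2 fell (1 without mouse 265 and 0 without each of mice 254, 257, 282 and 322) and 16 did not pass, with a median log2 change of 0.15. Their called share was 23.8%, beside 18.1% of all genes. Fgf21, the fasting hormone under PPARα control (ENSMUSG00000030827, chromosome 7 from 45613886 to 45615490), had 1.77, 2.72 and 4.21 CPM in fed mice and 25.4, 21.5 and 20.3 CPM in fasted mice. Fgf21 had a log2 change of 2.96 ± 0.43 SE (adjusted p = 0.00129). The 3 fasted mice lay within 20.3 to 25.4 CPM, clear of all fed mice. Rbp4, the plasma retinol carrier, rose from 2146 ± 252 to 4482 ± 121 CPM (log2 change 1.06, adjusted p = 0.000571). Angptl4, an inhibitor of lipoprotein lipase, had 171, 120 and 119 CPM in fed mice and 194, 250 and 266 CPM in fasted mice and did not pass (log2 change 0.79 ± 0.43 SE, adjusted p = 0.24).

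**Figure D2:**
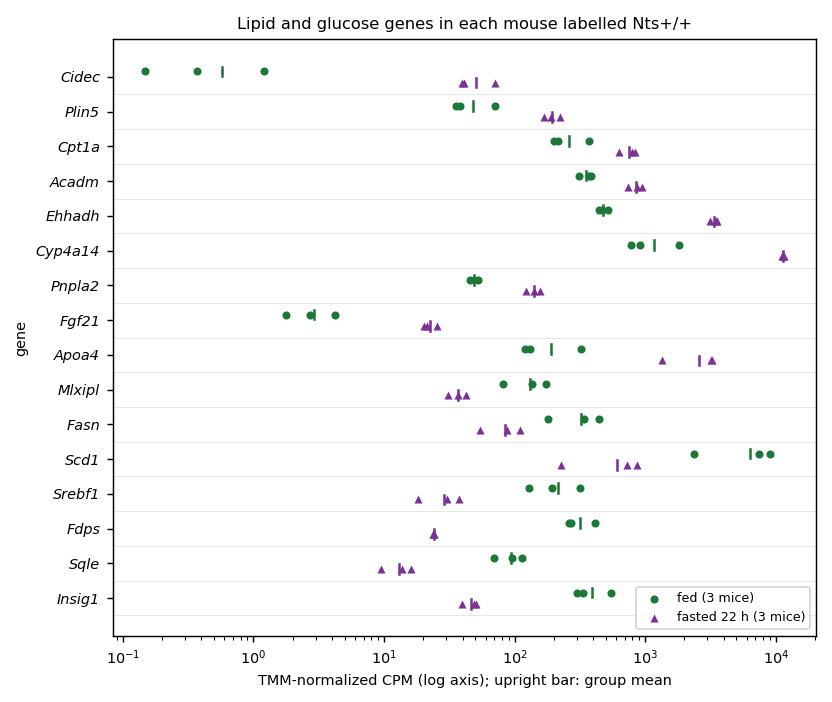
Level of 16 lipid and glucose genes in each of the 6 mice, in TMM-normalized CPM on a log axis, with fed mice as circles, fasted mice as triangles and the group mean as an upright bar. The 3 fasted and 3 fed mice did not overlap in any of the genes shown, from Cidec (log2 change 6.53) to Fdps (log2 change -3.71), and fed mouse 323 was often the fed mouse nearest to the fasted group.

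Genes for storing and mobilising triglyceride rose at the same time as genes for making fatty acids fell. Of 26 tested genes of triglyceride synthesis and lipid droplets, 13 rose, 0 fell and 13 did not pass, with a median log2 change of 0.86. Besides Cidec and Plin4, the droplet protein gene Plin5 had 35.3, 38.3 and 70.7 CPM in fed mice and 221, 190 and 167 CPM in fasted mice. Plin5 had a log2 change of 2.0 ± 0.22 SE (adjusted p = 0.000138). Pnpla2, the lipase that starts triglyceride breakdown, had 49.3, 45.5 and 52.1 CPM in fed mice and 123, 156 and 142 CPM in fasted mice. Pnpla2 had a log2 change of 1.52 ± 0.15 SE (adjusted p = 7.12e-05). Neither overlapped between groups. Mgll, which releases the last fatty acid, rose from 152 ± 44 to 439 ± 28.5 CPM (log2 change 1.53, adjusted p = 0.00021), and Dgat1, which adds the last fatty acid in synthesis, rose from 14.9 ± 0.726 to 26 ± 1.82 CPM (log2 change 0.80, adjusted p = 0.000605). Hilpda, an inhibitor of Pnpla2, rose from 1.84 ± 0.551 to 4.05 ± 0.137 CPM (log2 change 1.14, adjusted p = 0.00495), whereas the inhibitor gene G0s2 had 59.3, 78.1 and 156 CPM in fed mice and 623, 130 and 188 CPM in fasted mice and did not pass (log2 change 1.68 ± 0.58 SE, adjusted p = 0.077). Plin2, the general droplet coat, rose by 0.88 on the log2 scale. Plin2 was not called without any 1 of mice 254, 257 and 282 (adjusted p from 0.0844 to 0.098). G0s2 passed without mouse 323 or 282 (adjusted p = 0.0463 and 0.0458).

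Of 24 tested genes of fatty acid uptake and activation, 8 rose (5 without mouse 282 and 4 without mouse 254), 7 fell and 9 did not pass, with a median log2 change of 0.11. The uptake genes Cd36 and Slc27a1 rose from 43.2 ± 6.17 to 156 ± 56.6 CPM (log2 change 1.85, adjusted p = 0.00133) and from 6.32 ± 1.43 to 29.1 ± 6.6 CPM (log2 change 2.20, adjusted p = 7.92e-05). Ppara, the fatty acid receptor itself, rose by 0.89 on the log2 scale. Among those that fell were genes of fatty acid and acyl-CoA binding proteins: Fabp1, the main liver fatty acid binding protein, by 0.69, the acyl-CoA binding protein gene Dbi by 1.22 and the acyl-CoA synthetase gene Acsl3 by 1.53 on the log2 scale. Of 20 tested genes of apolipoproteins and lipoprotein assembly, 5 rose (3 without each of mice 254 and 257 and 2 without mouse 282), 1 fell and 14 did not pass, with a median log2 change of 0.08. Mttp, which loads lipid onto apolipoprotein B, rose from 289 ± 42.3 to 548 ± 51.2 CPM (log2 change 0.92, adjusted p = 0.000755), Apob rose from 2578 ± 236 to 4402 ± 892 CPM (log2 change 0.77, adjusted p = 0.00869), and the hepatic lipase gene Lipc fell from 232 ± 2.99 to 139 ± 6.32 CPM (log2 change -0.74, adjusted p = 0.00634). Apob was not called without mouse 282 (adjusted p = 0.0532). Fabp1 was not called without mouse 254 or 282 (adjusted p = 0.0792 and 0.0886). Ppara was not called without mouse 254 (adjusted p = 0.0546).

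Of 24 tested genes of bile acid synthesis and transport, 4 rose, 3 fell and 17 did not pass, with a median log2 change of 0.09. Cyp8b1, which sets the share of cholic acid, had 227, 122 and 367 CPM in fed mice and 857, 901 and 767 CPM in fasted mice. Cyp8b1 had a log2 change of 1.82 ± 0.38 SE (adjusted p = 0.00801). Cyp2c70, which makes the muricholic acids of mice, had 480, 561 and 643 CPM in fed mice and 74.8, 84.2 and 35.9 CPM in fasted mice. Cyp2c70 had a log2 change of -3.11 ± 0.33 SE (adjusted p = 0.000158). Both were apart between groups, in opposite directions. Abcb11, the export pump for bile salts, fell from 728 ± 36.3 to 255 ± 40.7 CPM (log2 change -1.51, adjusted p = 0.000293), and Cyp7b1 of the alternative pathway fell by 1.22 on the log2 scale. The sinusoidal uptake transporter gene Slco1a4 rose from 93.9 ± 23.3 to 308 ± 120 CPM (log2 change 1.71, adjusted p = 0.0064). Cyp7b1 was not called without any 1 of mice 254, 323, 265 and 282 (adjusted p from 0.0511 to 0.0733).

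**Figure D3:**
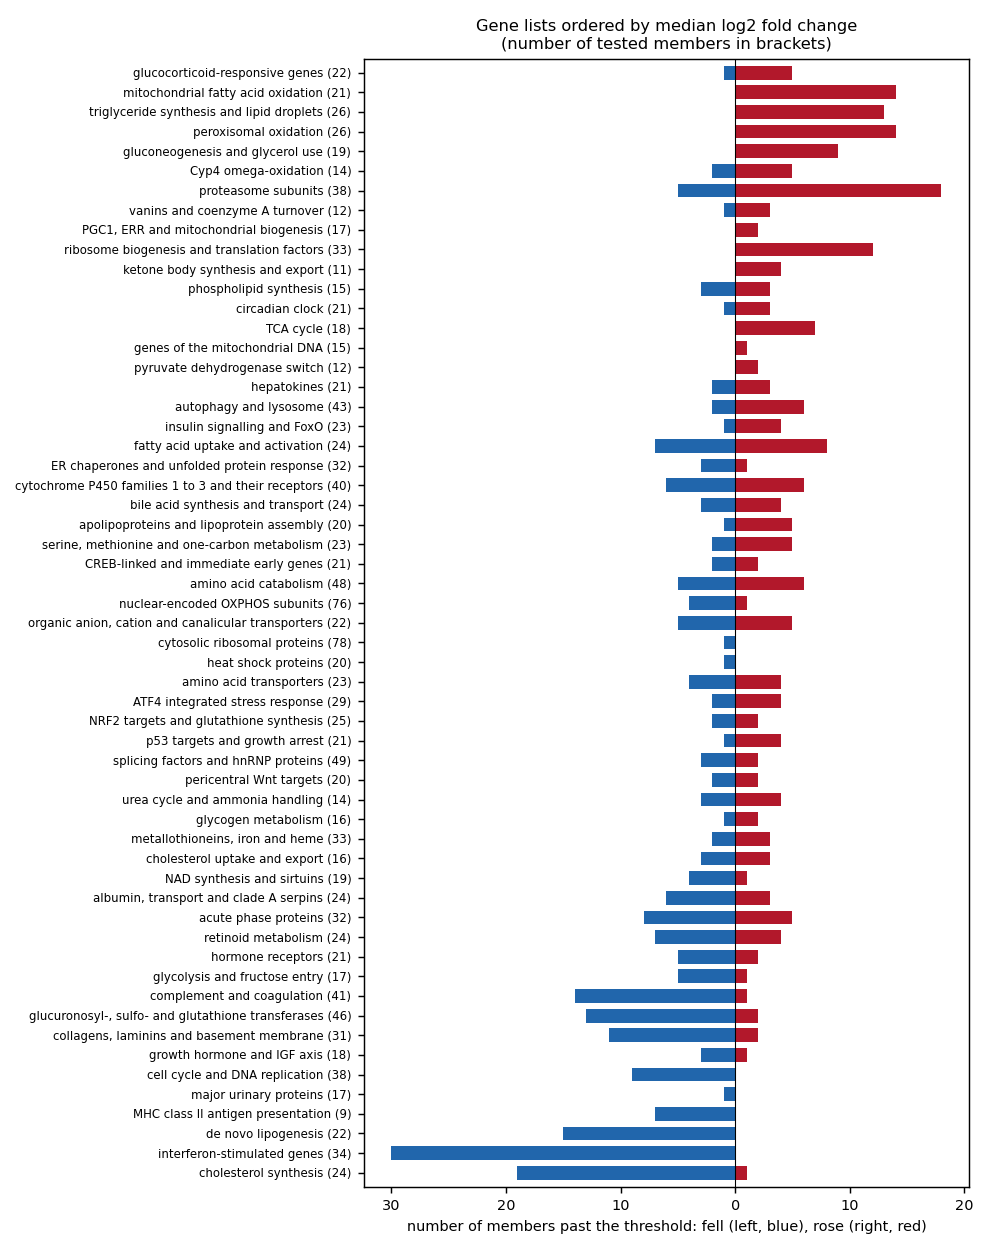
Number of members of each of the 57 gene lists that rose (red, to the right) or fell (blue, to the left), with lists ordered by their median log2 fold change and the number of tested members in brackets. Cholesterol synthesis is at the bottom with 19 of 24 members fallen, and mitochondrial fatty acid oxidation is near the top with 14 of 21 risen.

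Some genes that rose and some that fell were also looked at upstream of their starts. The 250 bases before the annotated start of Apoa4 (chr9:46240594-46240843, plus strand), Fgf21 (chr7:45615491-45615740, minus strand) and Sult1e1 (chr5:87591612-87591861, minus strand), which rose, and of Pnpla3 (chr15:84167566-84167815, plus strand), Insig1 (chr5:28071162-28071411, plus strand) and Acly (chr11:100528001-100528250, minus strand), which fell, are shown 5′ to 3′ on the gene's own strand, from RefSeq for GRCm38.p6. They are shown because each gene has a single listed start and was among the strongest responders or the rate-setting genes of a list that moved. In the deposited counts Apoa4 starts at 46240696, inside its window, so that part of this window lies within the counted gene. Capitals mark matches, on either strand, to the cAMP response element TGACGTCA, the FoxO motif GTAAACA, the E-box CACGTG, the CEBP-ATF motif TGATGNAAT, the sterol response element TCACNCCAC, the antioxidant motif TGACNNNGC, the TATA box TATAAA, the direct repeat of nuclear receptors and the glucocorticoid element, and no letters in capitals means only that none of them is in this window.
Apoa4: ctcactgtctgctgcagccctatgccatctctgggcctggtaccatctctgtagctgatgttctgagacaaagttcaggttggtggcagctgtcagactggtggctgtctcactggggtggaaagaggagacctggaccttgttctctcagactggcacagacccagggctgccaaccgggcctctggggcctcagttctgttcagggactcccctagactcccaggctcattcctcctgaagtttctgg
Fgf21: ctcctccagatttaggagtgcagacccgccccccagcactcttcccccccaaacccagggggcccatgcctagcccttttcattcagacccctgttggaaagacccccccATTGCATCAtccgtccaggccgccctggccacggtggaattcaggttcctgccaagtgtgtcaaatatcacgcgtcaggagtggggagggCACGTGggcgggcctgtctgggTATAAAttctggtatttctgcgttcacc
Sult1e1: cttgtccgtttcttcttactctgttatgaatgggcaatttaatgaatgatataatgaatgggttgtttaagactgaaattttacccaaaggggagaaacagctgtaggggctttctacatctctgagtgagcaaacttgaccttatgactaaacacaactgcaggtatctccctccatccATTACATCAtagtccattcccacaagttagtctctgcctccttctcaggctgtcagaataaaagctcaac
Pnpla3: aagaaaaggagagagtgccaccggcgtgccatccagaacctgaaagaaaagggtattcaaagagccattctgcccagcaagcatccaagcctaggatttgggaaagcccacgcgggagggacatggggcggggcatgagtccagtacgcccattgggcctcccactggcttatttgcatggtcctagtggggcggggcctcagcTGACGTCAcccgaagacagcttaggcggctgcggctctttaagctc
Insig1: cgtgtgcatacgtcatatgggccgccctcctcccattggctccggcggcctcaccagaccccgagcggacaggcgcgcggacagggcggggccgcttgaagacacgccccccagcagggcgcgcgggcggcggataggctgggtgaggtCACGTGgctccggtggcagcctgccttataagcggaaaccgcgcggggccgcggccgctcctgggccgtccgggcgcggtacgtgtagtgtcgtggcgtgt
Acly: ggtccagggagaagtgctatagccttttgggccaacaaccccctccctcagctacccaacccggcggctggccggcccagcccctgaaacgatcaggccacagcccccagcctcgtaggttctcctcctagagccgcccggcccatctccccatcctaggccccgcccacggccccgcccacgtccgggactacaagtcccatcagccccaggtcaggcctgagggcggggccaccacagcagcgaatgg

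The E-box in Insig1 and Fgf21 lies 101 and 50 bases before the start, the cAMP response element in Pnpla3 46 bases, and the CEBP-ATF match in Sult1e1 70 bases and in Fgf21 140 bases before it. Over the table of 32851 promoters of 27025 genes, with 1204 promoters of genes that rose and 1313 of genes that fell, the cAMP response element was found in 1.55% of all promoters, 3.32% of those of genes that rose, 1.37% of those that fell and 2.4% of those that did not pass. The E-box was found in 6.02% of all promoters, 8.64% of those of genes that rose, 6.78% of those that fell and 8.2% of those that did not pass. The sterol response element was found in 1.05% of all promoters, 0.664% of those of genes that rose, 1.75% of those that fell and 1% of those that did not pass. The FoxO motif was found in 3.17% of all promoters, 2.74% of those of genes that rose, 4.11% of those that fell and 2.27% of those that did not pass. In the same order, shares of the CEBP-ATF motif were 0.816%, 0.997%, 0.533% and 0.378%. For the direct repeat of nuclear receptors they were 0.338%, 0%, 0.457% and 0.258%. These shares are descriptions of letters in the window, with no test, and a match is not a bound site.

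Lists of hormone pathways held 22.2% (growth hormone and IGF axis), 21.7% (insulin signalling) and 33.3% (hormone receptors) called genes, beside 18.1% of all genes. Of 18 tested genes of the growth hormone and IGF axis, 1 rose, 3 fell and 14 did not pass, with a median log2 change of -0.44. Ghr, the growth hormone receptor, had 460, 439 and 422 CPM in fed mice and 254, 260 and 220 CPM in fasted mice. Ghr had a log2 change of -0.85 ± 0.15 SE (adjusted p = 0.00202). Igfals, which stabilises IGF in plasma, had 137, 191 and 198 CPM in fed mice and 88.3, 77 and 97.9 CPM in fasted mice. Igfals had a log2 change of -1.0 ± 0.16 SE (adjusted p = 0.00123). Igfbp2, an IGF binding protein, rose from 328 ± 30.1 to 715 ± 116 CPM (log2 change 1.12, adjusted p = 0.00317). Igf1 itself had 520, 504 and 675 CPM in fed mice and 443, 396 and 420 CPM in fasted mice and did not pass (log2 change -0.43 ± 0.19 SE, adjusted p = 0.133). Igfbp1, a binding protein under insulin control, had 224, 151 and 43.4 CPM in fed mice and 87.8, 331 and 373 CPM in fasted mice, values that overlapped (log2 change 0.92 ± 0.74 SE, adjusted p = 0.437).

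Of 23 tested genes of insulin signalling and FoxO, 4 rose (2 without each of mice 254 and 282), 1 fell (0 without each of mice 257, 323, 265 and 282) and 18 did not pass, with a median log2 change of 0.14. Trib3, an inhibitor of AKT, rose from 2.53 ± 0.192 to 7.11 ± 0.55 CPM (log2 change 1.49, adjusted p = 0.00557), and Mtor, the nutrient-sensing kinase, rose from 27.8 ± 1.64 to 45.5 ± 5.13 CPM (log2 change 0.71, adjusted p = 0.00395). The receptor gene Insr, the adaptor gene Irs2 and Foxo1 had log2 changes of 0.19, 0.66 and 0.15 and did not pass (adjusted p = 0.396, 0.31 and 0.581). Of 21 tested hormone receptor genes, 2 rose (1 without each of mice 257, 265 and 282 and 0 without mouse 254), 5 fell (3 without each of mice 254, 257 and 322) and 14 did not pass, with a median log2 change of -0.25. Lepr, the leptin receptor, had 5.17, 5.52 and 12 CPM in fed mice and 16.4, 35.2 and 70.7 CPM in fasted mice. Lepr had a log2 change of 2.45 ± 0.51 SE (adjusted p = 0.0109). Adra1b, the main α1-adrenergic receptor of the liver, had 64.9, 60.4 and 44.3 CPM in fed mice and 15.9, 11.3 and 13.7 CPM in fasted mice. Adra1b had a log2 change of -2.05 ± 0.22 SE (adjusted p = 0.000126). The groups were apart in both, but the fasted mice differed by several-fold in Lepr. Fgfr3, an FGF receptor gene, fell from 19.8 ± 2.39 to 8.55 ± 1.03 CPM (log2 change -1.21, adjusted p = 0.000429). Of 17 tested genes of PGC1, ERR and mitochondrial biogenesis, 2 rose (1 without mouse 254 and 0 without mouse 282), 0 fell and 15 did not pass, with a median log2 change of 0.32. The called share was 11.8%, below the 18.1% of all genes. Ppargc1a, which encodes the coactivator PGC1α, had 7.35, 6.18 and 5.54 CPM in fed mice and 10.8, 10.3 and 11 CPM in fasted mice, with no overlap between groups but no call (log2 change 0.75 ± 0.34 SE, adjusted p = 0.151). Lepr was not called without mouse 254 (adjusted p = 0.0500028).

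Of 21 tested CREB-linked and immediate early genes, 2 rose (1 without each of mice 254, 257, 323, 265 and 322), 2 fell (1 without each of mice 254, 323, 265 and 322 and 0 without each of mice 257 and 282) and 17 did not pass, with a median log2 change of 0.03, and of 22 glucocorticoid-responsive genes, 5 rose, 1 fell and 16 did not pass, with a median log2 change of 0.91. The called shares were 19% and 27.3%, beside 18.1% of all genes. Tdo2, which starts tryptophan breakdown, had 888, 972 and 774 CPM in fed mice and 2520, 1786 and 1575 CPM in fasted mice. Tdo2 had a log2 change of 1.16 ± 0.20 SE (adjusted p = 0.00195). Cebpd, a transcription factor gene, had 4.65, 3.64 and 2.26 CPM in fed mice and 5.69, 11.2 and 10.0 CPM in fasted mice (log2 change 1.35 ± 0.29 SE, adjusted p = 0.00675), and Lcn2, an iron-siderophore binding protein of the acute phase, had 9.49, 4.64 and 14.6 CPM in fed mice and 93.7, 63.1 and 39.6 CPM in fasted mice. Lcn2 had a log2 change of 2.78 ± 0.61 SE (adjusted p = 0.015). Groups were separate in each. Serpina6, which encodes the corticosteroid-binding globulin of plasma, had 334, 483 and 201 CPM in fed mice and 86.1, 67.2 and 62 CPM in fasted mice. Serpina6 had a log2 change of -2.24 ± 0.45 SE (adjusted p = 0.00849). Fkbp5, a widely used glucocorticoid readout, and Tat, tyrosine aminotransferase, did not pass (log2 changes 0.59 and 0.52, adjusted p = 0.115 and 0.152). The metallothionein gene Mt1 had 43.1, 16.6 and 85.7 CPM in fed mice and 334, 738 and 88.2 CPM in fasted mice and did not pass (log2 change 3.0 ± 0.99 SE, adjusted p = 0.0713), with fasted mouse 322 at the level of the fed mice. Of 21 tested circadian clock genes, 3 rose, 1 fell (0 without each of mice 254, 257, 282 and 322) and 17 did not pass, with a median log2 change of 0.24. Clock genes were thus called at 19%, near the 18.1% of all genes. Hlf, an output factor of the clock, rose from 27.7 ± 4.65 to 47.5 ± 5.54 CPM (log2 change 0.78, adjusted p = 0.00742), and Ciart, a repressor in the clock loop, rose from 0.103 ± 0.0388 to 0.937 ± 0.536 CPM (log2 change 3.09, adjusted p = 0.00445). Times of death are not given in the sources used here. Lcn2 was not called without mouse 254 (adjusted p = 0.0605). Fkbp5 passed without mouse 323 (adjusted p = 0.0413). Mt1 passed without mouse 322 (adjusted p = 0.0441).

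Among stress pathways the share of called genes was 20.7% for the ATF4 response, 23.8% for p53 targets and 16% for NRF2 targets, beside 18.1% of all genes, and it was 12.5% for ER chaperones and 5% for heat shock genes. Of 29 tested genes of the ATF4 response, 4 rose (2 without each of mice 254, 323, 282 and 322), 2 fell (1 without each of mice 254, 257, 265 and 282) and 23 did not pass, with a median log2 change of -0.03. The members that rose included Fgf21 and Trib3, and Aldh1l2, a mitochondrial folate enzyme, fell from 0.647 ± 0.175 to 0.0904 ± 0.0952 CPM (log2 change -2.93, adjusted p = 0.0118). Of 32 tested genes of ER chaperones and the unfolded protein response, 1 rose (2 without mouse 265 and 0 without each of mice 254, 257 and 322), 3 fell (5 without mouse 322) and 28 did not pass, with a median log2 change of 0.10. Hspa5, the main chaperone, had 633, 783 and 729 CPM in fed mice and 762, 732 and 1690 CPM in fasted mice and did not pass (log2 change 0.57 ± 0.34 SE, adjusted p = 0.273). Fasted mouse 322 alone was high in Hspa5 and in the chaperone gene Creld2, which had 20.5, 28.8 and 22 CPM in fed mice and 25.5, 29.3 and 119 CPM in fasted mice. Sec61b, a translocon subunit, fell from 44.9 ± 2.33 to 21.3 ± 5.03 CPM (log2 change -1.07, adjusted p = 0.00334). Of 20 tested heat shock genes, 0 rose (1 without mouse 322), 1 fell (0 without each of mice 257 and 282) and 19 did not pass, with a median log2 change of -0.0042. Of 21 p53 targets, 4 rose (2 without mouse 257), 1 fell (2 without each of mice 265 and 322 and 0 without each of mice 254, 257 and 282) and 16 did not pass, with a median log2 change of -0.03, among them Cdkn1a, a cell cycle inhibitor, which rose from 21.2 ± 5.35 to 72.4 ± 20.3 CPM (log2 change 1.78, adjusted p = 0.0138). Of 25 NRF2 targets, 2 rose (1 without each of mice 254, 257, 323, 282 and 322), 2 fell (4 without mouse 323, 1 without mouse 322 and 0 without each of mice 254, 257 and 282) and 21 did not pass, with a median log2 change of -0.03, with the sulfiredoxin gene Srxn1 rising from 38.4 ± 5.49 to 87 ± 6.4 CPM (log2 change 1.18, adjusted p = 0.00016). Of 33 metallothionein, iron and heme genes, 3 rose, 2 fell (1 without mouse 282) and 28 did not pass, with a median log2 change of -0.09, and Tfrc, the transferrin receptor, rose from 14.9 ± 4.3 to 56.4 ± 7.69 CPM (log2 change 1.92, adjusted p = 0.0119). The metallothionein, iron and heme list had 15.2% called genes, beside 18.1% of all genes. Neighbouring enzymes of heme synthesis moved in opposite directions, Cpox by 0.97 and Ppox by -1.08 on the log2 scale. Cdkn1a was not called without mouse 257 (adjusted p = 0.0538).

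Amino acid genes moved in both directions. The called share was 50% for the urea cycle list and 22.9% for amino acid catabolism, beside 18.1% of all genes. Of 14 tested genes of the urea cycle and ammonia handling, 4 rose (2 without each of mice 254, 257, 265 and 282), 3 fell (1 without mouse 282) and 7 did not pass, with a median log2 change of -0.06. Asl, argininosuccinate lyase, had 431, 499 and 544 CPM in fed mice and 1601, 1113 and 803 CPM in fasted mice. Asl had a log2 change of 1.25 ± 0.23 SE (adjusted p = 0.0024). Cps1, which starts the cycle, had 3112, 2981 and 2571 CPM in fed mice and 6690, 4471 and 3290 CPM in fasted mice and did not pass (log2 change 0.74 ± 0.25 SE, adjusted p = 0.0585). Aqp8, a channel of the inner mitochondrial and canalicular membranes, had 199, 161 and 130 CPM in fed mice and 32.4, 22.2 and 12.6 CPM in fasted mice. Aqp8 had a log2 change of -2.87 ± 0.38 SE (adjusted p = 0.000756). Fasted mouse 265 was the highest for Asl and for several other amino acid genes below. Of 48 tested genes of amino acid catabolism, 6 rose, 5 fell (3 without each of mice 254 and 282) and 37 did not pass, with a median log2 change of 0.03. Oat, ornithine aminotransferase, had 856, 687 and 764 CPM in fed mice and 2975, 2428 and 1328 CPM in fasted mice. Oat had a log2 change of 1.54 ± 0.31 SE (adjusted p = 0.00605). The alanine aminotransferase gene Gpt2 and Aass of lysine breakdown rose by 1.30 and 1.38 on the log2 scale. In the tryptophan route, Tdo2 at its start rose, while Haao near the branch to NAD fell from 424 ± 34.2 to 174 ± 47.9 CPM (log2 change -1.28, adjusted p = 0.000755) and Acmsd fell by 1.44 on the log2 scale. Cps1 passed without mouse 322 (adjusted p = 0.0188).

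Of 23 tested genes of serine, methionine and one-carbon metabolism, 5 rose (3 without each of mice 254, 257, 323, 265, 282 and 322), 2 fell (1 without each of mice 254, 257 and 322 and 0 without mouse 282) and 16 did not pass, with a median log2 change of 0.04. Mat1a, which makes S-adenosylmethionine, had 2618, 2698 and 3730 CPM in fed mice and 13628, 8963 and 6230 CPM in fasted mice (log2 change 1.67 ± 0.25 SE, adjusted p = 0.000833), and Ahcy, which clears its product, rose from 2136 ± 250 to 3926 ± 785 CPM (log2 change 0.88, adjusted p = 0.00283). Of 23 tested amino acid transporter genes, 4 rose (2 without each of mice 254 and 257 and 1 without mouse 282), 4 fell (2 without each of mice 254, 257 and 282) and 15 did not pass, with a median log2 change of -0.03. The cationic transporter gene Slc7a2 rose from 226 ± 59.7 to 461 ± 95.7 CPM (log2 change 1.03, adjusted p = 0.00688), and the neutral transporter gene Slc1a4 fell from 8.3 ± 1.37 to 2.99 ± 0.982 CPM (log2 change -1.47, adjusted p = 0.00485). Of 19 tested genes of NAD synthesis and sirtuins, 1 rose, 4 fell (2 without mouse 254) and 14 did not pass, with a median log2 change of -0.11. Nnmt, which methylates nicotinamide, rose from 89.6 ± 21 to 222 ± 80.2 CPM (log2 change 1.31, adjusted p = 0.00334), and Qprt, which makes NAD from tryptophan, fell from 163 ± 13.3 to 94.2 ± 21.4 CPM (log2 change -0.79, adjusted p = 0.00495).

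Among the detoxification genes that passed, oxidases went both ways and most transferases fell. Of 40 tested genes of P450 families 1 to 3 and their receptors, 6 rose (3 without mouse 257), 6 fell and 28 did not pass, with a median log2 change of 0.10. Por, the reductase that feeds electrons to all of these enzymes, had 264, 275 and 312 CPM in fed mice and 773, 762 and 827 CPM in fasted mice. Por had a log2 change of 1.47 ± 0.12 SE (adjusted p = 1.5e-05). Cyp2e1, which oxidises ketones and alcohols, had 5883, 5198 and 6752 CPM in fed mice and 11890, 11664 and 9470 CPM in fasted mice. Cyp2e1 had a log2 change of 0.89 ± 0.19 SE (adjusted p = 0.00697). Cyp1a2, which oxidises caffeine and aromatic amines, had 644, 726 and 350 CPM in fed mice and 245, 222 and 180 CPM in fasted mice. Cyp1a2 had a log2 change of -1.41 ± 0.31 SE (adjusted p = 0.00935). None overlapped between groups. Cyp2c55 fell by 2.71 on the log2 scale, with the reservation that close Cyp2c copies may share reads. Of 46 tested transferase genes, 2 rose (1 without each of mice 323 and 265 and 0 without each of mice 254, 257 and 282), 13 fell (7 without each of mice 254 and 257 and 6 without mouse 282) and 31 did not pass, with a median log2 change of -0.38. Gsta3, a glutathione transferase, had 1830, 1766 and 1712 CPM in fed mice and 992, 866 and 746 CPM in fasted mice. Gsta3 had a log2 change of -1.03 ± 0.18 SE (adjusted p = 0.00228). Ugt2b37 and the microsomal transferase gene Mgst3 fell, with log2 changes of -2.54 and -1.27, and counts within the Gst and Ugt families may also be shared. Against the direction of the list, Sult1e1, the estrogen sulfotransferase, had 3 counts over the 3 fed mice and 306 over the 3 fasted mice, a ratio of 88.8 (95% counting interval 30.1 to 433). The rise came from mice 265 and 282, at 4.98 and 6.48 CPM, and mouse 322 had 0.136 CPM. Sult1e1 was not called without any 1 of mice 254, 257, 323 and 282 (adjusted p from 0.0625 to 0.0926).

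Of 22 tested genes of organic ion and canalicular transporters, 5 rose, 5 fell (3 without each of mice 257 and 265) and 12 did not pass, with a median log2 change of 0.01. Abcb4, which exports phospholipid into bile, rose from 222 ± 39.7 to 505 ± 58.4 CPM (log2 change 1.18, adjusted p = 0.000436), in contrast to the fall of Abcb11. The ion transporter gene Slc22a30 had 137, 141 and 143 CPM in fed mice and 33.5, 28 and 36.3 CPM in fasted mice (log2 change -2.10 ± 0.14 SE, adjusted p = 1.71e-06), with fed mice nearly equal. Of 17 tested major urinary protein genes, which are near-identical copies whose counts are uncertain, 0 rose, 1 fell (2 without mouse 265 and 0 without mouse 282) and 16 did not pass, with a median log2 change of -0.78.

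Among secreted plasma proteins, complement and coagulation genes fell more often than they rose, and acute phase genes moved in both directions. Of all genes, 8.91% rose and 9.19% fell. Of 32 tested acute phase genes, 5 rose (3 without each of mice 257 and 323, 2 without mouse 254 and 1 without mouse 282), 8 fell (5 without mouse 265, 4 without mouse 257 and 3 without each of mice 254, 282 and 322) and 19 did not pass, with a median log2 change of -0.22. Without mouse 322, 5 rose and 3 fell. In mice labelled Nts-/-, 6 acute phase genes rose and 2 fell. Lcn2, Hp and Serpina3n rose (log2 changes 2.78, 0.72 and 1.16), whereas the serum amyloid gene Saa2 fell from 19.5 ± 3.45 to 8.87 ± 2.84 CPM (log2 change -1.14, adjusted p = 0.00763), the fibrinogen chain gene Fga fell by 0.60 on the log2 scale and the metalloreductase gene Steap4 fell from 115 ± 15.3 to 47.1 ± 0.615 CPM (log2 change -1.28, adjusted p = 0.000636). Serpina1c, 1 of several near-identical antitrypsin copies, fell by 0.94 on the log2 scale. Of 41 tested complement and coagulation genes, 1 rose (0 without each of mice 254, 323 and 282), 14 fell (7 without mouse 254 and 3 without mouse 282) and 26 did not pass, with a median log2 change of -0.31. Mbl2, a lectin that starts complement, had 604, 695 and 633 CPM in fed mice and 256, 223 and 291 CPM in fasted mice. Mbl2 had a log2 change of -1.33 ± 0.22 SE (adjusted p = 0.00148). C9, of the membrane attack complex, had 261, 211 and 240 CPM in fed mice and 152, 101 and 110 CPM in fasted mice. C9 had a log2 change of -0.97 ± 0.18 SE (adjusted p = 0.0024). In both genes every fasted mouse was below every fed mouse. The only rise was that of coagulation factor F5 (log2 change 0.53, adjusted p = 0.0218). Of 24 tested genes of albumin, transport proteins and clade A serpins, 3 rose (1 without each of mice 254 and 282), 6 fell (2 without mouse 282) and 15 did not pass, with a median log2 change of -0.19, and Ttr, transthyretin, fell by 0.63 on the log2 scale. F5 was not called without any 1 of mice 254, 323 and 282 (adjusted p from 0.0646 to 0.0969). Fga was not called without any 1 of mice 254, 257, 282 and 322 (adjusted p from 0.0515 to 0.103). Hp was not called without any 1 of mice 254, 257, 323, 265 and 282 (adjusted p from 0.0668 to 0.124). Serpina3n was not called without mouse 254 or 282 (adjusted p = 0.0615 and 0.0505). Ttr was not called without any 1 of mice 254, 257, 265 and 282 (adjusted p from 0.0500028 to 0.0773).

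Interferon-stimulated genes fell almost as a block. Of 34 tested, 0 rose, 30 fell (19 without mouse 282) and 4 did not pass, with a median log2 change of -1.40, beside 9.19% of all genes that fell. The members that did not pass were Ddx58, Usp18, Oasl1 and Mx1. Ifi47, an interferon-γ-induced GTPase, had 27.8, 27.2 and 44.2 CPM in fed mice and 7.12, 7.04 and 9.11 CPM in fasted mice. Ifi47 had a log2 change of -2.09 ± 0.20 SE (adjusted p = 5.65e-05). Zbp1, a sensor of unusual nucleic acids, had 14, 15 and 12.7 CPM in fed mice and 1.9, 1.16 and 2.98 CPM in fasted mice. Zbp1 had a log2 change of -2.77 ± 0.37 SE (adjusted p = 0.000582). Isg15, a ubiquitin-like modifier, had 11.8, 13.4 and 9.44 CPM in fed mice and 3.89, 1.52 and 3.12 CPM in fasted mice. Isg15 had a log2 change of -2.04 ± 0.39 SE (adjusted p = 0.00469). The groups did not overlap in these genes, and mouse 323, which lay nearest to fasted mice in lipid genes, was the highest fed mouse for Ifi47. Gbp6, a guanylate-binding protein gene with close copies, fell from 37.9 ± 4.27 to 5.67 ± 1.2 CPM (log2 change -2.73, adjusted p = 0.000145). The transcription factor gene Irf7 fell from 37.7 ± 11.5 to 16.7 ± 6.04 CPM (log2 change -1.18, adjusted p = 0.034). Ifi27l2a and Xaf1 fell, with log2 changes of -2.20 and -2.02. The 3 catalytic subunits of the immunoproteasome, which are induced by interferon, fell as well, Psmb9 from 21.4 ± 3.57 to 6.3 ± 0.575 CPM (log2 change -1.76, adjusted p = 0.000115), Psmb10 from 43 ± 7.53 to 13.1 ± 3.37 CPM (log2 change -1.70, adjusted p = 0.000158) and Psmb8 from 38 ± 2.1 to 15.6 ± 3.75 CPM (log2 change -1.28, adjusted p = 0.00018). Irf7 was not called without any 1 of mice 254, 257, 265 and 282 (adjusted p from 0.0594 to 0.113).

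Of 9 tested genes of MHC class II antigen presentation, 0 rose, 7 fell (2 without mouse 265 and 1 without each of mice 257 and 282) and 2 did not pass, with a median log2 change of -0.95. Ctss, a protease that trims the invariant chain, fell from 66.2 ± 6.14 to 38.2 ± 9.75 CPM (log2 change -0.79, adjusted p = 0.00396). The class II chain gene H2-Ab1 and the invariant chain gene Cd74 fell, with log2 changes of -1.08 and -0.80. Markers of immune cells were examined in the same mice. Of Kupffer cell and macrophage markers, 0 rose and 4 fell of 12 tested, and their summed level was 852 to 940 CPM in fed and 433 to 710 CPM in fasted mice. The members that fell were Clec4f and the 3 C1q chains, while Vsig4, Timd4, Marco, Adgre1 and Csf1r did not pass. Of lymphocyte markers, 0 rose and 1 fell of 15 tested, and their summed level was 19.8 to 24.3 CPM in fed and 15 to 20.4 CPM in fasted mice. Of neutrophil and monocyte markers, 0 rose and 1 fell of 5 tested, and their summed level was 5.81 to 12.1 CPM in fed and 4.03 to 5.92 CPM in fasted mice. The lymphocyte and neutrophil sums overlapped between groups. The neutrophil marker Ly6g was at 0 in 4 mice and Mpo in 1, and no marker of these lists was at 0 in all 6 mice. The part of these cells in the falls of class II, complement C1q and interferon genes was not tested. Cd74 was not called without any 1 of mice 254, 257, 265 and 282 (adjusted p from 0.104 to 0.134). H2-Ab1 was not called without any 1 of mice 257, 265 and 282 (adjusted p from 0.0531 to 0.0716). Csf1r passed without mouse 322 (adjusted p = 0.0404). Vsig4 passed without mouse 322 (adjusted p = 0.0143).

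**Figure D4:**
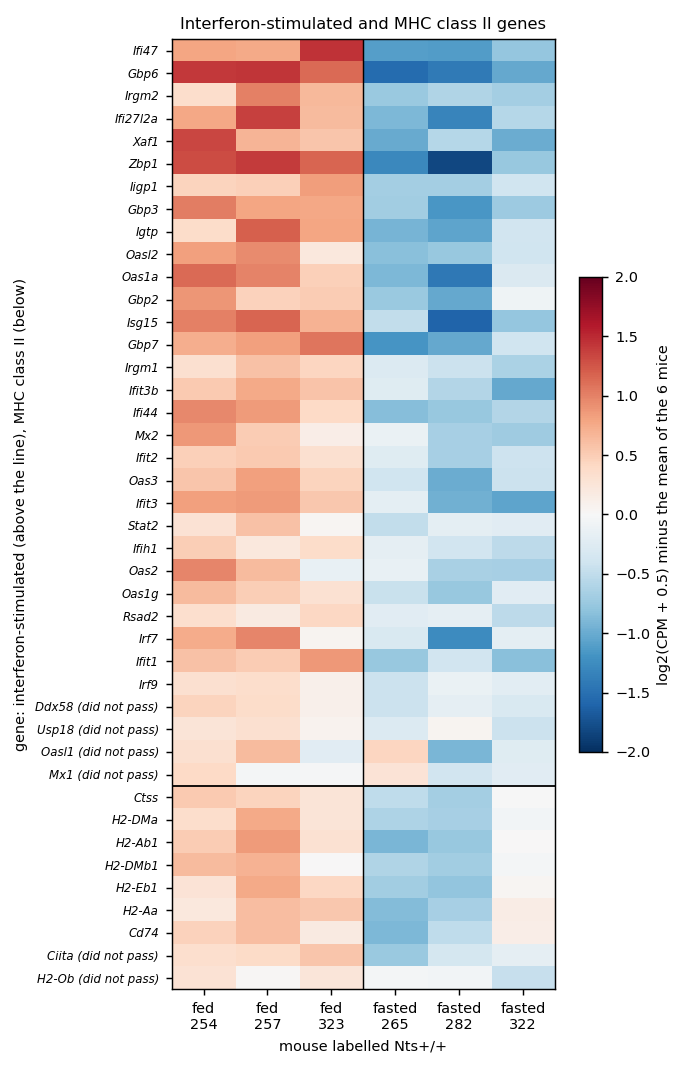
Levels of 33 of the 34 tested interferon-stimulated genes (above the line) and 9 MHC class II genes (below) in each mouse, as the difference of log2 CPM from the mean of the 6 mice, with red for higher and blue for lower. The 3 fed mice are red and the 3 fasted mice blue for nearly every gene, and genes that did not pass are marked.

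Some genes of the matrix and of cell division fell, beside 9.19% of all genes that fell. Of 31 tested genes of collagens, laminins and basement membrane, 2 rose (1 without each of mice 254, 257, 323, 265, 282 and 322), 11 fell (7 without each of mice 254 and 282) and 18 did not pass, with a median log2 change of -0.44. Col3a1, a fibrillar collagen, had 13.4, 13.4 and 10.6 CPM in fed mice and 5.22, 3.57 and 5.91 CPM in fasted mice. Col3a1 had a log2 change of -1.35 ± 0.21 SE (adjusted p = 0.000987). Nid2, which links basement membrane proteins, fell from 10.5 ± 2.62 to 3.6 ± 0.105 CPM (log2 change -1.54, adjusted p = 0.00169). Lamb3, a laminin chain, moved the other way and rose from 3.44 ± 0.878 to 15.8 ± 6.56 CPM (log2 change 2.20, adjusted p = 0.000528). Col1a1 had 1.88, 1.21 and 0.931 CPM in fed mice and 0.901, 0.463 and 0.814 CPM in fasted mice and did not pass (log2 change -0.90 ± 0.38 SE, adjusted p = 0.115). Of stellate cell and fibroblast markers, 0 rose and 3 fell of 12 tested, and their summed level was 440 to 519 CPM in fed and 390 to 424 CPM in fasted mice, and of sinusoidal endothelium markers, 1 rose and 4 fell of 12 tested, and their summed level was 318 to 453 CPM in fed and 285 to 290 CPM in fasted mice. Their part in the matrix changes was not tested. Of 38 tested genes of the cell cycle and DNA replication, 0 rose (1 without each of mice 323 and 265), 9 fell (5 without mouse 265 and 4 without each of mice 254, 257 and 282) and 29 did not pass, with a median log2 change of -0.60. Mcm5, of the replicative helicase, had 2.81, 3.31 and 2.22 CPM in fed mice and 0.474, 0.331 and 0.786 CPM in fasted mice (log2 change -2.35 ± 0.32 SE, adjusted p = 0.000436), and Tk1, which salvages thymidine, fell from 28 ± 6.7 to 7.62 ± 2.48 CPM (log2 change -1.88, adjusted p = 0.00282). Mki67, a marker of cycling cells, had 1.48, 1.69 and 1.11 CPM in fed mice and 0.712, 0.694 and 0.705 CPM in fasted mice and did not pass (log2 change -1.02 ± 0.44 SE, adjusted p = 0.126).

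Of 20 tested pericentral Wnt targets, 2 rose, 2 fell and 16 did not pass, with a median log2 change of -0.05. The called share was 20%, near the 18.1% of all genes. Cyp2e1 and Oat rose, and Cyp1a2 and Rgn fell. Rgn, a calcium-binding lactonase, fell from 1543 ± 40.6 to 558 ± 149 CPM (log2 change -1.47, adjusted p = 0.000572). Of 24 tested genes of retinoid metabolism, 4 rose, 7 fell and 13 did not pass, with a median log2 change of -0.24. Cyp26a1, which degrades retinoic acid, had 19.8, 14 and 17.8 CPM in fed mice and 5.65, 2.71 and 3.5 CPM in fasted mice (log2 change -2.14 ± 0.43 SE, adjusted p = 0.00756), and the retinal reductase genes Rdh11 and Dhrs3 fell from 102 ± 22.5 to 23.7 ± 1.73 CPM (log2 change -2.10, adjusted p = 0.000436) and from 208 ± 27.7 to 107 ± 6.27 CPM (log2 change -0.96, adjusted p = 0.000532). All 3 fasted mice had less Cyp26a1 than any fed mouse.

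Few genes of the largest protein machines passed the test. Of 76 tested nuclear-encoded subunits of oxidative phosphorylation, 1 rose (0 without each of mice 254, 257, 265 and 282), 4 fell (2 without mouse 322 and 1 without each of mice 254, 257 and 282) and 71 did not pass, with a median log2 change of 0.02, which with 5 of 76 called is below the 18.1% of all genes. Ndufa1, a small subunit of complex I, fell from 63.8 ± 11.7 to 37 ± 7.02 CPM (log2 change -0.79, adjusted p = 0.0163). Of 15 genes of the mitochondrial DNA, 1 rose (0 without each of mice 254, 257, 282 and 322), 0 fell and 14 did not pass, with a median log2 change of 0.20, and the share of counts on that genome was between 2.24% and 5.18% over the 6 mice. Of 78 tested cytosolic ribosomal protein genes, 0 rose (2 without mouse 265), 1 fell (5 without mouse 323, 2 without mouse 265 and 0 without each of mice 254, 257 and 282) and 77 did not pass, with a median log2 change of 0.0016. Of 33 tested genes of ribosome biogenesis and translation factors, 12 rose (7 without each of mice 254 and 282), 0 fell and 21 did not pass, with a median log2 change of 0.31. Rrp12, which exports ribosomal subunits from the nucleus, had 4.06, 6.92 and 3.99 CPM in fed mice and 11.4, 13.1 and 12.1 CPM in fasted mice. Rrp12 had a log2 change of 1.29 ± 0.27 SE (adjusted p = 0.00697). The RNA polymerase I subunit gene Polr1a rose from 13.4 ± 2.1 to 24.3 ± 3.83 CPM (log2 change 0.86, adjusted p = 0.00405), and the nucleolar genes Nop56 and Ddx21 rose by 0.85 and 0.69 on the log2 scale. Ndufa1 was not called without any 1 of mice 254, 257 and 282 (adjusted p from 0.0651 to 0.082).

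Of 38 tested proteasome subunit genes, 18 rose (11 without mouse 257 and 10 without mouse 254), 5 fell and 15 did not pass, with a median log2 change of 0.34. The split followed the kind of subunit: 18 members of the standard core and cap and their regulators rose, among them the cap genes Psmd4, from 86 ± 4.14 to 152 ± 17.6 CPM (log2 change 0.82, adjusted p = 0.00317), and Psmc4, from 71.5 ± 1.65 to 128 ± 9.53 CPM (log2 change 0.84, adjusted p = 0.000611). The 5 that fell were the immunoproteasome genes Psmb8, Psmb9 and Psmb10 and the interferon-inducible activators Psme1 and Psme2. Of 43 tested genes of autophagy and the lysosome, 6 rose (3 without each of mice 257, 265 and 282 and 2 without mouse 254), 2 fell (1 without each of mice 254 and 282) and 35 did not pass, with a median log2 change of 0.14. This list had 18.6% called genes, near the 18.1% of all genes. Bnip3, a receptor for mitochondrial autophagy, rose from 160 ± 50.2 to 389 ± 70.7 CPM (log2 change 1.28, adjusted p = 0.000856), Atg2a, which carries lipid to growing autophagosomes, rose from 33.8 ± 1.33 to 57.6 ± 5.03 CPM (log2 change 0.77, adjusted p = 0.00101), and the initiating kinase gene Ulk2 fell from 63.7 ± 8 to 41.9 ± 1.22 CPM (log2 change -0.61, adjusted p = 0.00935). Of 49 tested splicing factor and hnRNP genes, 2 rose (0 without each of mice 257, 323, 265 and 282), 3 fell (1 without mouse 322 and 0 without each of mice 254 and 282) and 44 did not pass, with a median log2 change of -0.05. Their called share of 10.2% was below that of all genes. Psme1 was not called without any 1 of mice 254, 257, 265 and 282 (adjusted p from 0.0584 to 0.159).

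The libraries differed in the relation of level to transcript length along with feeding. Spearman's correlation across genes between transcript length and the deviation of a gene from its mean was -0.126, -0.0706 and -0.109 in the fed mice and 0.0926, 0.131 and 0.0295 in the fasted mice, where genes are not independent replicates. The median longest transcript was 4511 bases for genes that rose, 3551 for genes that fell and 4206 for genes that did not pass. With offsets that remove this trend 2513 genes changed, of which 2287 were also called without them. The counts with offsets were 2 risen and 1 fallen ribosomal protein genes, 19 fallen genes of cholesterol synthesis and 15 risen genes of mitochondrial fatty acid oxidation. Some lists shifted more. Transferases went from 2 risen and 13 fallen to 5 and 11. Nuclear-encoded subunits of oxidative phosphorylation went from 1 risen and 4 fallen to 3 and 3. Fallen hepatokine genes went from 2 to 0.

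The same feeding comparison was made in the 6 mice labelled Nts-/-, which share no library with the 6 mice above. There 2326 genes (16.8%) changed, 1063 upward and 1263 downward. Of the 1231 genes that rose in mice labelled Nts+/+, 721 also rose in those labelled Nts-/- and 1216 had the same sign, and of the 1270 that fell, 760 also fell and 1226 had the same sign. The median log2 change of these genes in mice labelled Nts-/- was 0.58 and -0.72. The difference between both responses passed in 0 of 13812 genes (0%) in edgeR's test, with 663 genes at an unadjusted p under 0.05 and a smallest adjusted p of 0.888. DESeq2's Wald test called 3 genes and limma voom 0. Among the 3 was Nr1i3, the xenobiotic receptor CAR, with a difference of -1.19 on the log2 scale (adjusted p = 0.000389 in DESeq2's Wald test), and the others were Arl4d and Gm26675. Nr1i3 rose by 0.49 in mice labelled Nts+/+ and by 1.67 in mice labelled Nts-/- on the log2 scale. In edgeR's feeding comparison of mice labelled Nts+/+, Nr1i3 was not called without any 1 of mice 257, 323, 265, 282 and 322 (adjusted p from 0.0533 to 0.11). In that same feeding comparison, and not in the test of the difference, Arl4d passed without mouse 323 (adjusted p = 0.0414).

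By list, the median log2 change of cholesterol synthesis was -1.69 in mice labelled Nts+/+ and -2.69 in those labelled Nts-/-, with 19 and 20 genes fallen. It was -1.10 and -1.33 for de novo lipogenesis and 0.90 and 1.14 for mitochondrial fatty acid oxidation. Interferon-stimulated genes had medians of -1.40 and -1.05, with 30 and 25 fallen. MHC class II genes had 7 fallen genes with the label Nts+/+ and 0 with the label Nts-/-, at medians of -0.95 and -0.63, and no member passed the test of the difference between the responses (smallest adjusted p = 0.897). The major urinary protein genes were the list whose medians had opposite signs by the widest margin, -0.78 and 0.95, also with no gene that passed the test of the difference.

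**Figure D5:**
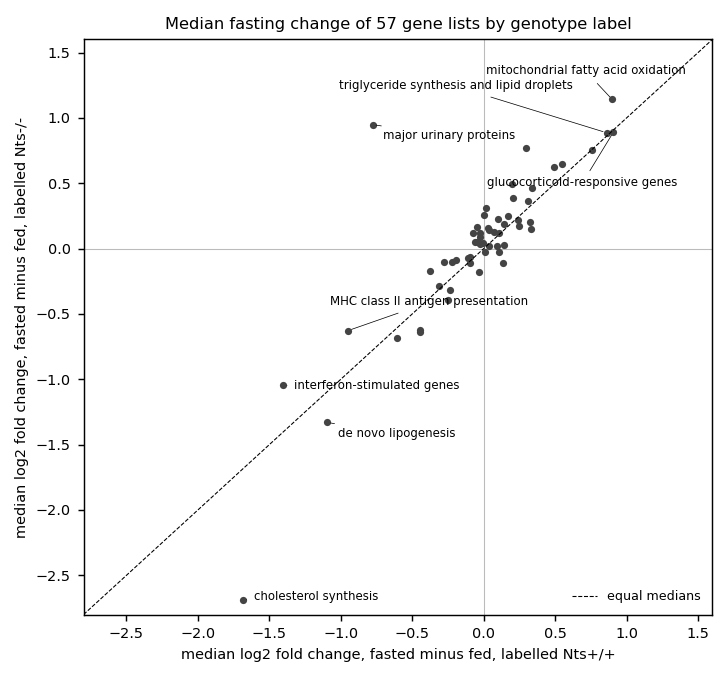
Each point is 1 gene list, with its median log2 fold change of fasted over fed in mice labelled Nts+/+ on the x axis and in mice labelled Nts-/- on the y axis, and the dashed line marks equal medians. Cholesterol synthesis lies lowest on both axes (-1.69 and -2.69), and the major urinary proteins lie farthest from the line.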

How the data were processed

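Liver RNA of 12 mice was sequenced, and the 6 mice labelled Nts+/+ were compared, 3 fasted for 22 h against 3 fed. The authors deposited expected counts, which are estimated counts per gene that need not be whole (6.94% to 8.66% of values were not), with Ensembl identifiers and GRCm38 positions. Trimmomatic, RSEM and GRCm38 are named in the submitters' processing notes, and versions and strandedness are not given in the sources used here. Columns of other samples numbered 0, and 1220 genes have no symbol. Estimated counts were rounded. In R 4.3.3, 13812 genes passed the filterByExpr filter of edgeR 4.0.16, TMM factors were applied, and robust quasi-likelihood tests came from 1 model of the 4 group means. Benjamini-Hochberg values were taken over all tested genes, and the common biological coefficient of variation was 0.202. Depth was 21999647 to 36018372 counts, so that 3 counts, taken as the floor, equal 0.0833 to 0.136 CPM, which covers counting error only.

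Members and gene lists were chosen with earlier results of these data known, and the 57 lists were described by counts and medians without a test. The 1539 list entries included 36 with too few counts to be tested. Genes named are the listed regulators and rate-setting genes, the 2 members of each list with the smallest p and the member that passed against its list's direction, up to 12 largest rises and 12 largest falls at a mean of 1 CPM or more without overlap between groups, and the genes the study is about. Some genes that the rule names are not reported here. Other list members were chosen after their values were seen. Promoters came from a RefSeq table for GRCm38.p6 that held 10442 tested genes. Lengths are those of each gene's longest GENCODE vM39 transcript and matched 99.2% of tested genes. Alternatives were RLE normalization, DESeq2 1.42.0, limma 3.58.1 (voom), 2 other filters, only the 6 mice, no mitochondrial DNA genes, length offsets, 2 other thresholds and leaving out each mouse. The edgeR tests of the feeding comparison and of the difference between responses were run on simulated counts. The lists, markers, promoters and alternatives were not.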

Additional observations from a re-analysis of the deposited data

Results flagged for a closer look

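The counts on Nts are outside the feeding comparison and do not follow the genotype labels. The 6 libraries labelled Nts-/- had 135 counts on the gene in all, between 4 and 46 in each, and the 6 libraries labelled Nts+/+ had 0 counts, where a count of 0 allows up to 3. The feeding comparison is within 1 label. Whether the labels are exchanged, or the counts come from the targeted allele, was not tested. The receptor gene Ntsr1 had 0 counts in all 12 libraries and Ntsr2 had 1 count in 1 library. Groups held 3 mice, so no test for single outlying mice was made.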

How the results depend on the processing

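The 2501 changed genes (1231 higher, 1270 lower) fell to 911 (356 and 555) when an absolute log2 change of at least 1 was also required, and the share of higher genes among calls moved from 49.2% to 39.1%. With 1 of the 12 mice left out at a time, the count of changed genes was between 1224 and 2770, that of higher genes between 628 and 1420 and that of lower genes between 596 and 1350. All other settings kept these counts within 1.5 times, from 2036 changed genes with only the 6 mice fitted to 3570 at an adjusted p under 0.10, and DESeq2 gave 2881. The number of genes whose response differed between genotype labels was 0, but 3 with the Wald test of DESeq2 and between 0 and 1 with 1 mouse left out (Gm44002 without mouse 323). Named genes that passed did not reverse in any setting run. Of 175, 59 lost the call in some setting, 44 of them with the fold requirement, 25 without mouse 282, 6 with only the 6 mice, 5 without a count filter and 2 with limma voom (Pnpla3 and Sult1e1). The cause was not tested. Counts and medians of lists moved in 448 comparisons with another setting and held in 3197. No paired analysis was possible because the labels give no replicate number that fed and fasted mice share. Genes under 1 CPM had the lowest share of calls, with 66 risen and 107 fallen of 1993 tested. Their median absolute log2 change among those called was 1.89, against 0.63 among called genes of 10 to 100 CPM. The part of depth in this was not tested.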

Other observations

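Genes of phosphatidylcholine synthesis moved in both directions within 1 pathway. Of 15 tested genes of phospholipid synthesis, 3 rose, 3 fell (1 without each of mice 254, 257, 265 and 322 and 0 without mouse 282) and 9 did not pass, with a median log2 change of 0.25. The 2 choline kinase genes went opposite ways: Chka had 77.2, 87.2 and 69 CPM in fed mice and 20.9, 18.7 and 32.9 CPM in fasted mice (log2 change -1.68 ± 0.38 SE, adjusted p = 0.0126), and Chkb had 34.6, 23.5 and 24.1 CPM in fed mice and 48.3, 50.9 and 49.7 CPM in fasted mice. Chkb had a log2 change of 0.85 ± 0.19 SE (adjusted p = 0.00786). Neither overlapped between groups. Chpt1, the last step of the choline route, rose from 99.5 ± 37.1 to 236 ± 27.3 CPM (log2 change 1.25, adjusted p = 0.00158), and Pemt, which makes phosphatidylcholine by methylation, fell by 0.51 on the log2 scale. Chka was not called without mouse 282 (adjusted p = 0.0607). Pemt was not called without any 1 of mice 254, 257, 265, 282 and 322 (adjusted p from 0.0541 to 0.123).

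Coenzyme A, which carries fatty acids through oxidation, is also turned over by vanins and Nudix enzymes. Of 12 tested genes of vanins and coenzyme A turnover, 3 rose (5 without mouse 323), 1 fell and 8 did not pass, with a median log2 change of 0.33. Vnn1, a pantetheinase and PPARα target, had 40.3, 27.9 and 91.6 CPM in fed mice and 185, 224 and 320 CPM in fasted mice. Vnn1 had a log2 change of 2.19 ± 0.40 SE (adjusted p = 0.00462). Nudt7, which hydrolyses coenzyme A in peroxisomes, had 194, 209 and 225 CPM in fed mice and 81.6, 79.2 and 57.4 CPM in fasted mice. Nudt7 had a log2 change of -1.53 ± 0.19 SE (adjusted p = 0.000202). All fasted mice were above all fed mice for Vnn1 and below them for Nudt7.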
